A study of Mus musculus with 2 samples.

Results

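The spots described here were picked from the dorsal part of 2 mouse brain sections with 3 genes that mark neocortical layer 5, Fezf2, Etv1 and Deptor. Of the 7264 tissue-covered spots in both sections, 120 were taken, 60 in each section. A spot had to hold at least 500 transcripts, counted as unique molecular identifiers (UMIs), to lie at array row 30 or less (the dorsal part of the image), and to have 0 counts of Vxn and of Tshz2. Spots that passed were ranked by the mean over the 3 genes of log1p(count scaled to 10000 UMIs per spot), and the 60 highest were kept. The remaining 1283 spots of mouse 1 and 1149 spots of mouse 2 in the same array rows with at least 500 UMIs are called the other dorsal spots.

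Each section was 1 coronal cryosection, 10 µm thick, of fresh-frozen, unperfused brain, cut 1.9 mm behind bregma and including both dorsal hippocampi. Its lateral parts were trimmed so that it fitted the 6.5 mm capture area of a 10x Genomics Visium slide, on which barcoded spots capture the polyadenylated RNA of the tissue above them. Both mice expressed hM3Dq, an engineered receptor that excites neurons when its ligand CNO is given, and both were treated with CNO. The injection lay 4.6 mm behind bregma. Both are labelled wild type: mouse 1 as a control of strain C57BL/6J, mouse 2 as an isogenic control edited with CRISPR-Cas9. No section without CNO was part of the comparison, so nothing below measures a response to the drug, and the labels do not say which side of the image was injected. A spot is a small region that can hold several cell types, and in summed spots fewer cells of a type and less RNA per cell cannot be told apart.

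Layer 5 of the neocortex holds the large pyramidal neurons that send axons out of the cortex, to the brainstem and spinal cord among other targets, together with neurons that project within the telencephalon. Fezf2 encodes a transcription factor needed for the subcortical projection fate, Etv1 a transcription factor of the ETS family that is widely used as a layer 5 marker, and Deptor an inhibitor of mTOR signalling enriched in layer 5. Vxn is expressed in deep cortical layers and Tshz2 in retrosplenial and some deep-layer neurons, and both were used here to keep other cortical neurons out. On the mouse GRCm38.p6 assembly, RefSeq places Fezf2 at chr14:12338992-12346803, Etv1 at chr12:38780082-38870483, Deptor at chr15:55112317-55259273, Vxn at chr1:9601267-9627142 and Tshz2 at chr2:169632509-170072751.

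The section of mouse 1 held 30671753 UMIs and that of mouse 2 held 55315952. The chosen spots held 350427 UMIs in mouse 1 and 783230 in mouse 2, against 8816048 and 16871074 in the other dorsal spots. A chosen spot had a median of 5462 UMIs in mouse 1 (range 2339 to 16299) and 11944 in mouse 2 (range 5260 to 28637), a little below the medians of 6168 and 13793 in the other dorsal spots. The sections shared 3369 array positions, which follows from the fixed grid of the slide and not from shared cells. Levels below are CPM, the UMIs of a gene scaled to a total of 1000000 UMIs over the summed spots.

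The requirement on Vxn and Tshz2 removed most dorsal spots. Of 1343 dorsal spots in mouse 1, 458 had 0 Vxn and 384 had 0 of both genes. Of 1209 in mouse 2, which held more UMIs per spot, 134 had 0 Vxn and 110 had 0 of both. Among these, 172 spots in mouse 1 and 70 in mouse 2 had any count of the 3 scored genes, so the 60 that were taken made up 34.9% and 85.7% of the spots with a score above 0. The score rested on few molecules: 35 chosen spots of mouse 1 and 33 of mouse 2 had only 1 of the 3 genes detected, and 16 and 15 had only 1 UMI of the 3 genes in all. The median was 2 UMIs in both mice, with up to 9 in a spot of mouse 1 and up to 7 in mouse 2. At the border of the set, the spots ranked 59 to 62 scored 0.428, 0.427, 0.426 and 0.424 in mouse 1 and 0.214, 0.202, 0.200 and 0.197 in mouse 2, so that spots on either side of it hardly differed.

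**Figure D1:**
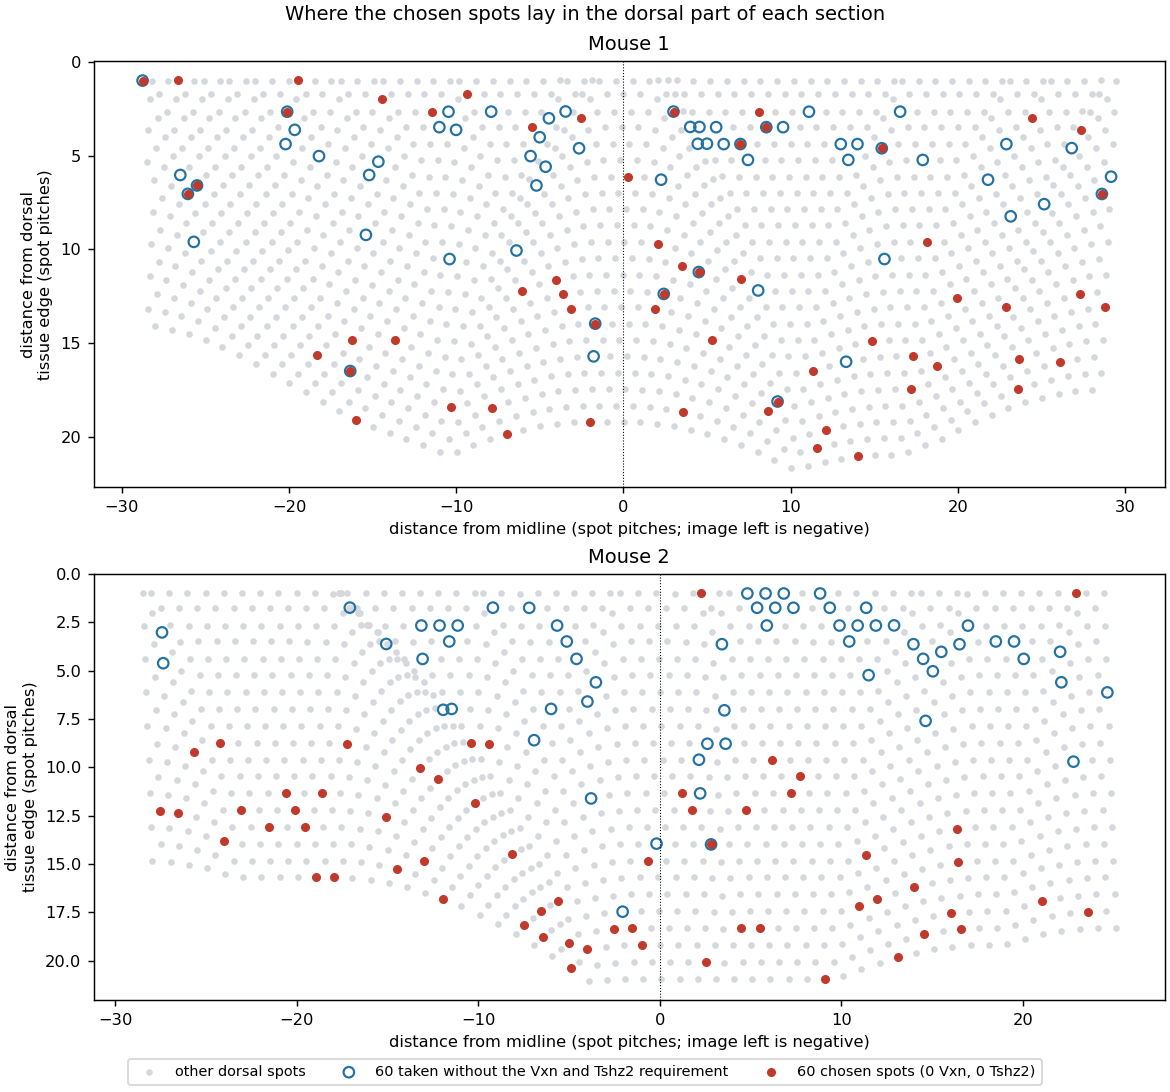
Position of the chosen spots (red) and of the 60 spots taken without the Vxn and Tshz2 requirement (blue circles) among the dorsal spots (grey) of mouse 1 (top) and mouse 2 (bottom), with distance from the midline on the x axis and distance below the dorsal tissue edge on the y axis, both in spot pitches. In mouse 2, 58 of 60 chosen spots lay over 8 pitches below the edge, against 10 of 60 of the spots taken without the requirement.

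The position of the chosen spots went against the layer 5 label. Distances are in pitches, the spacing between the centres of neighbouring spots. They run to the nearest array position above the dorsal tissue edge, in any direction. Only array columns whose tissue began at array row 20 or less were used for that edge. This measure was added after the data had been seen, since the distance to the nearest tissue edge at a lower array row also counted lateral edges, which were nearer for 22 chosen spots of mouse 1 and 29 of mouse 2. The chosen spots lay at a median of 12.5 pitches (quartiles 4.55 and 16.3) in mouse 1 and 14.7 pitches (11.7 and 17.7) in mouse 2. With the nearest edge of either kind the medians were 10.6 and 11.3 pitches. The other dorsal spots lay at medians of 9.60 and 9.21 pitches. Over 8 pitches below the edge lay 40 of 60 chosen spots in mouse 1 (66.7%) and 58 of 60 in mouse 2 (96.7%), against 58.1% and 54.9% of the other dorsal spots. When the 60 spots per section were taken by the same score without the requirement on Vxn and Tshz2, their medians were 5.03 and 3.63 pitches, and 14 and 10 of 60 lay over 8 pitches. The chosen set and this unrestricted set shared 14 spots in mouse 1 and 1 spot in mouse 2.

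The levels of the marker genes were followed along the same axis. Over all dorsal spots in steps of 2 pitches, Fezf2 was highest at 4 to 6 pitches in mouse 1 (55.8 CPM) and at 2 to 4 pitches in mouse 2 (59.97), and lowest beyond 18 pitches (9.5 and 11.5). Etv1 also peaked there, at 172.7 in mouse 1 and 155.8 in mouse 2, and was at 51.2 and 70.9 beyond 18 pitches. At 8 to 10 pitches Fezf2 was still at 43.9 and 50.2 and Etv1 at 125.5 and 140.3. That step held 2 chosen spots of mouse 1 and 6 of mouse 2. Deptor was highest at 4 to 6 pitches in mouse 1 (31.7). In mouse 2 it was near level from 0 to 8 pitches (15.9 to 17.2), with 15.7 at 16 to 18 pitches. Vxn peaked deeper than Fezf2 and Etv1, at 6 to 8 pitches in both mice, with 435.3 and 426.8. Mbp, which encodes myelin basic protein and marks white matter, peaked at 10 to 12 pitches in mouse 1 (10510) and at 8 to 10 pitches in mouse 2 (8960). Spink8, a gene of hippocampal pyramidal cells, peaked at 14 to 16 pitches (326.3 and 211.4). The band from 2 to 6 pitches, chosen after these profiles had been seen, held 272 dorsal spots in mouse 1 and 246 in mouse 2. It contained 12 chosen spots in mouse 1 and 0 in mouse 2, but 35 and 31 spots of the unrestricted set. Within that band, 55 spots of mouse 1 and 1 spot of mouse 2 had 0 Vxn and 0 Tshz2, which left almost none to choose in mouse 2.

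**Figure D2:**
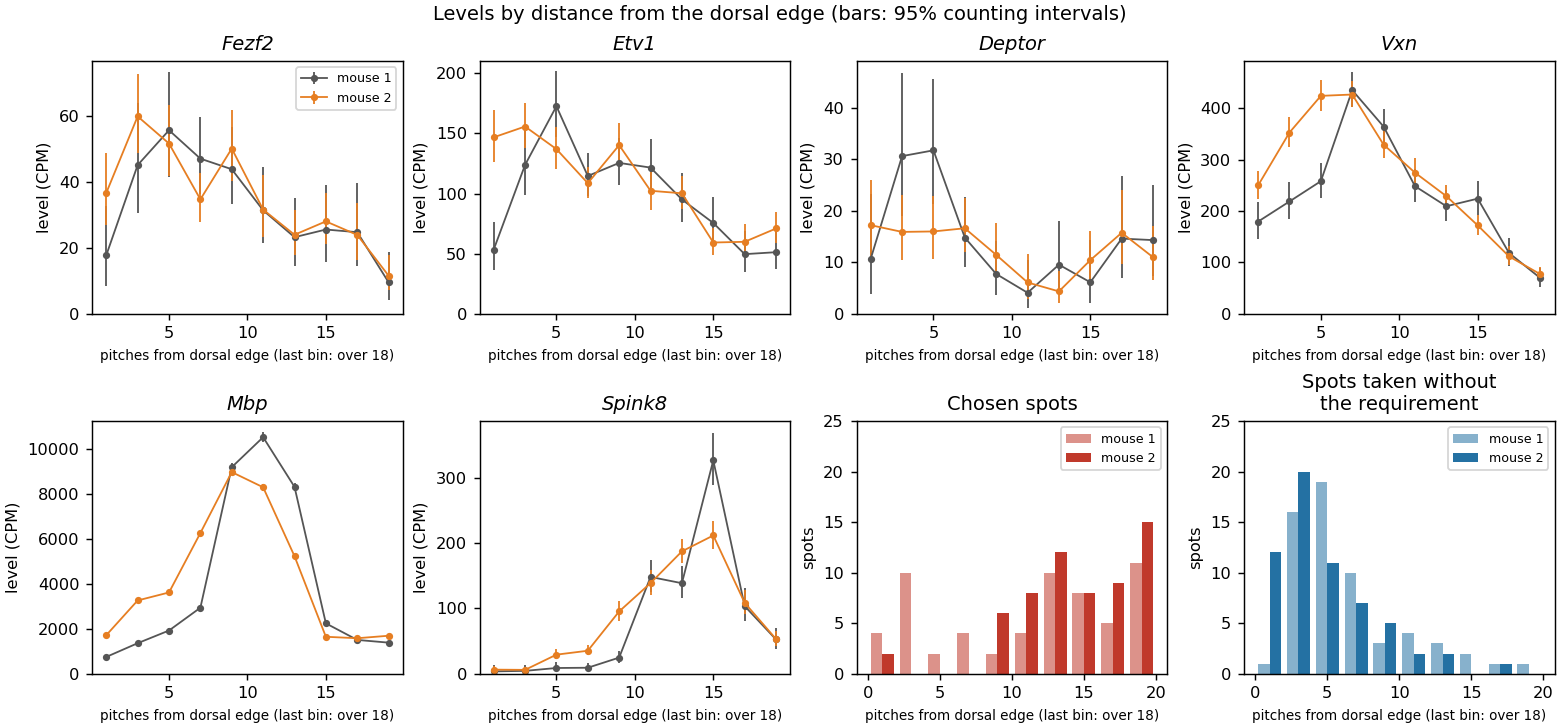
Levels of 6 genes in all dorsal spots by distance from the dorsal tissue edge (CPM, bars are exact 95% Poisson intervals, mouse 1 grey and mouse 2 orange) and the number of chosen and unrestricted spots in each step of 2 pitches. Fezf2 was highest within the first 6 pitches, whereas the chosen spots of mouse 2 began, apart from 2 spots, beyond 8 pitches. At 8 to 10 pitches Fezf2 was at 43.9 CPM in mouse 1 and 50.2 in mouse 2.

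Of the dorsal spots adjacent to a chosen spot, 4.72% in mouse 1 and 8.80% in mouse 2 were chosen too. A spot next to several chosen spots was counted once for each. The share expected from the size of the set, with the chosen spot itself left out, was 4.40% and 4.88%. Both adjacent shares lay below the 17.0% and 21.8% of the unrestricted set. Within the chosen set, the content changed with depth in the order of the tissue. Mbp was at 1769 CPM in the 20 chosen spots of mouse 1 up to 8 pitches deep, at 15803 in the 16 spots from 8 to 14 pitches and at 1521 in the 24 spots beyond. In mouse 2, with 2, 26 and 32 spots, it was at 933, 10120 and 1391. Ttr, which encodes transthyretin, made in large amounts by the choroid plexus, was at 134, 713 and 6880 in mouse 1 and at 81.1, 999 and 23861 in mouse 2 over the same steps. Spink8 was at 0, 23.5 and 119 in mouse 1 and at 40.5, 41.8 and 68.6 in mouse 2, where the shallow value was 1 UMI. Lamp5, a gene of superficial and some other cortical neurons, was at 216, 54.8 and 31.9 in mouse 1 and at 446, 68.4 and 42.4 in mouse 2. Lamp5 was thus highest in the shallow spots, Mbp in the middle and Ttr and Spink8 in the deep spots of both mice. The set is called the chosen spots from here on.

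The genes used by the rule are given as a description, without a test. Fezf2 was at 79.9 CPM in the chosen spots of mouse 1 and 32.6 in the other dorsal spots, but at 35.7 and 35.2 in mouse 2. Etv1 was at 296.8 against 95.7 in mouse 1 and 121.3 against 107 in mouse 2. Deptor was at 42.8 against 12.7 and 19.2 against 12.0. In mouse 1 all 3 scored genes stood well above the rest, and in mouse 2 Fezf2 was level with it. These sums rested on 28, 104 and 15 UMIs in mouse 1 and 28, 95 and 15 in mouse 2. Vxn and Tshz2 were at 0 by choice, against 266 and 43.6 in the other dorsal spots of mouse 1 and 287 and 32.8 in mouse 2. In the unrestricted set, which lay shallower, Fezf2 reached 182.8 against 27.5 in mouse 1 and 137.4 against 29.7 in mouse 2, and Vxn was at 269 against 255 and 286 against 274.

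When 1 marker was left out of the score, its level in the spots chosen with the other 2 was independent of the choice apart from sharing spots and depth. With the requirement kept, and against the other dorsal spots with 0 Vxn and 0 Tshz2, the left-out Fezf2 was 1.96 times as high in mouse 1 (95% interval 0.981 to 3.68) and 1.38 times in mouse 2 (0.626 to 3.22). Etv1 was 1.68 times as high in mouse 1 (1.19 to 2.33), the only interval of the 6 that did not include 1. In mouse 2 the chosen spots and the other spots free of both genes held 28 and 2 Fezf2 UMIs, and 15 and 1 Deptor UMIs. These were too few for every spot taken without Etv1 to score above 0. The ratio of left-out Etv1 in mouse 2, 1.29 (0.855 to 1.97), thus included spots not picked by score. It cannot decide whether Etv1 follows the other markers there. Without the requirement, against the other dorsal spots, left-out Fezf2 was 1.72 times as high in mouse 2 (1.27 to 2.28), and Etv1 1.43 times in mouse 1 (1.08 to 1.88) and 1.27 times in mouse 2 (1.04 to 1.53). The intervals of the remaining 3 included 1: Fezf2 was 1.47 times as high in mouse 1 (0.885 to 2.31), and Deptor 1.41 times in mouse 1 (0.597 to 2.88) and 1.19 times in mouse 2 (0.621 to 2.08). These are exact intervals for counting error within 1 section. They do not cover the spread between mice.

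**Figure D3:**
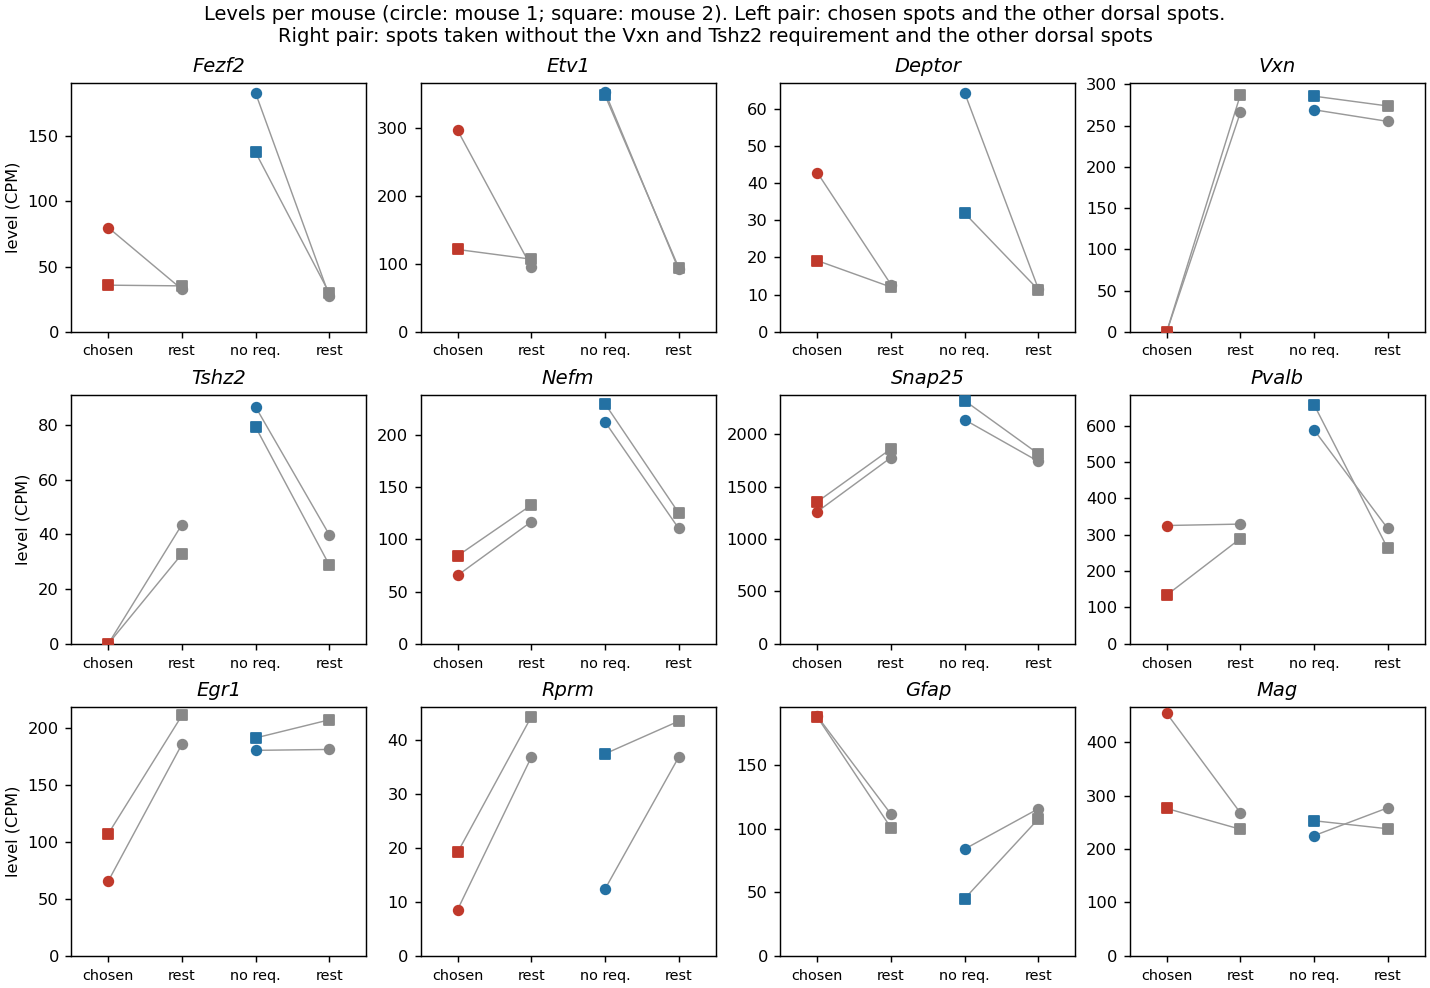
Levels of the 5 genes of the rule and of 7 further genes, in CPM, for mouse 1 (circles) and mouse 2 (squares). The left pair of each panel sets the chosen spots (red) against the other dorsal spots (grey), the right pair the spots taken without the requirement (blue) against theirs: Nefm lay lower in the first pair and higher in the second in both mice.

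For all other genes, the summed counts of the chosen spots and of the other dorsal spots were compared across mice with edgeR's quasi-likelihood test, with the mouse as a block. Genes were called at a Benjamini-Hochberg adjusted p under 0.05. Each fit had 4 libraries and 1 residual degree of freedom, so most of its precision came from sharing the spread across genes. Genes that lie with or against Vxn, Tshz2 and the 3 markers in the tissue differ in part because of how the spots were chosen, to an unknown extent. Of 13074 genes tested, 85 (0.65%) were called: 48 higher (0.367%) and 37 lower (0.283%) in the chosen spots, 84 of them (0.642%) in the same direction in both mice. DESeq2 called 0 genes (184 at an unadjusted p under 0.05). Without the mouse as a block edgeR called 0 (1048 unadjusted), and after thinning every spot to 2000 UMIs it called 0 (607 unadjusted), so the calls below hold for the blocked fit on full counts.

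Hs3st2, a heparan sulfate sulfotransferase gene of excitatory neurons, was at 5.71 CPM against 25.9 in mouse 1 and 2.55 against 25.7 in mouse 2, a log2 difference of -2.82 (SE 0.54, adjusted p = 0.0079) that rested on 2 UMIs in the chosen spots of each mouse. Rprm, a layer 6 gene, was at 8.56 against 36.8 and 19.1 against 44.2 (log2 -1.38, adjusted p = 0.036). It was the only 1 of 10 tested layer 6 genes that was called. Among genes of the programme of subcerebral projection neurons, 1 of 11 was called, and it was lower: Crym, which encodes a thyroid hormone binding protein, at 45.7 against 104 and 60.01 against 114 (log2 -0.97, adjusted p = 0.0072). The list's median log2 difference was -0.37, beside -0.01 over all genes tested.

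Genes of layer 5 neurons of the extratelencephalic kind did not separate the chosen spots from their surroundings: 0 of 8 tested members were called, with a median of -0.00. Bcl11b, whose product acts downstream of Fezf2, was at 42.8 against 53.0 in mouse 1 and 72.8 against 69.1 in mouse 2. Pou3f1, another transcription factor gene of these neurons, was at 62.8 against 66.7 and 54.9 against 69.3. Of 7 tested genes of the intratelencephalic kind, 1 was called. Hsd11b1, which encodes an enzyme that regenerates active glucocorticoid, was at 51.4 against 37.2 and 76.6 against 38.4 (log2 0.87, adjusted p = 0.047). None of 5 near-projecting, 7 layer 4 and 8 upper-layer genes were called.

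Genes of axons and synapses were lower where they were called. Nefm, the medium neurofilament subunit that is abundant in large projection neurons, was at 65.6 against 117 in mouse 1 and 84.3 against 133 in mouse 2 (log2 -0.68, adjusted p = 0.045). Gap43, a growth cone protein gene, was at 151 against 211 and 135 against 209 (log2 -0.53). These were the 2 called members among 12 tested neurofilament and axon genes. Snap25, a SNARE protein needed for transmitter release, was at 1261 against 1777 and 1355 against 1860 (log2 -0.44, adjusted p = 0.0042), and was the 1 called of 15 presynaptic genes. Kcnab1, a potassium channel subunit gene, was the 1 called of 21 (48.5 against 97.4 and 67.7 against 114). Nrgn, which encodes the calmodulin-binding protein neurogranin of pyramidal dendrites, was at 1481 against 2073 and 1569 against 1986 (log2 -0.37), and Cck, a neuropeptide gene, at 896 against 1380 and 1057 against 1287 (log2 -0.40). Pvalb, a gene of fast-spiking interneurons, missed the threshold, at 325 against 329 and 134 against 290 (adjusted p = 0.097).

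Some astrocyte and white matter genes were called, all of them higher. Of 10 tested astrocyte genes, 4 were called and all 4 rose. Aqp4, the astrocyte water channel, was at 106 against 65.7 in mouse 1 and 144 against 68.7 in mouse 2 (log2 0.97, SE 0.16, adjusted p = 0.0017). Gfap, the intermediate filament of fibrous astrocytes, was at 188 against 111 and 188 against 101 (log2 0.88, SE 0.13, adjusted p = 0.00055). In both mice the chosen spots lay well above the rest for these genes. Of 11 tested oligodendrocyte and white matter genes, 5 rose, among them Cnp, an enzyme of myelin, at 730 against 394 and 465 against 397 (log2 0.58, adjusted p = 0.0072), and Mag, a myelin adhesion protein, at 454 against 268 and 276 against 237 (log2 0.51, adjusted p = 0.032). The gap was wide in mouse 1 and narrow in mouse 2, where the summed level of the 11 genes was 10710 against 10460, compared with 16570 against 10200 in mouse 1.

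Several further genes with large rises are known from the choroid plexus or meninges. Kl, the klotho gene, was at 37.1 against 28.7 in mouse 1 and 94.5 against 37.9 in mouse 2 (log2 1.11, adjusted p = 0.013), and Trpm3, a cation channel gene, at 31.4 against 29.0 and 101 against 39.0 (log2 1.11, adjusted p = 0.016). Ecrg4, a secreted factor gene, was called although mouse 1 had 37.1 against 41.2, because mouse 2 had 129 against 49.5. For these genes the difference lay mostly or wholly in mouse 2. Ptgds, which encodes a prostaglandin synthase of the meninges, was at 1986 against 1526 and 1623 against 1160 (log2 0.47, adjusted p = 0.0017), as the 1 called of 10 meninges genes. Pdpn, a membrane glycoprotein gene, was at 28.5 against 7.15 and 21.7 against 7.88 (log2 1.70, adjusted p = 0.045), and Acadl, an enzyme of fatty acid oxidation, at 45.7 against 27.3 and 61.3 against 23.8 (log2 1.19, adjusted p = 0.017). A few spots carried much of such signal: 5 chosen spots held 90.0% of the 968 Ttr UMIs of mouse 1 and 93.2% of the 12086 of mouse 2, with 608 and 5941 in a single spot. Snap25, by contrast, had 27.1% and 29.4% of its UMIs in 5 spots.

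The study's title concerns the complement protein C1q and immunoglobulins in activity-dependent loss of synapses, and genes for these and for neuronal activity were followed by name. C1qa, a C1q chain gene made by microglia, was at 108 against 87.5 CPM in mouse 1 and 105 against 79.5 in mouse 2 (adjusted p = 0.36). C1qb was at 111 against 77.5 and 99.6 against 80.5 (adjusted p = 0.32), and C1qc at 108 against 71.1 and 66.4 against 65.4 (adjusted p = 0.64). C1qa and C1qb stood above the rest in both mice, and C1qc in mouse 1 but about level with it in mouse 2. None of the 3 chains passed the test. Clu, the clusterin gene, known from astrocytes and counted with the complement regulators, was the 1 called of 14 complement genes, at 1019 against 847 and 1204 against 865 (log2 0.41, adjusted p = 0.013). None of 14 microglia genes were called, with a summed level of 799 against 614 and 688 against 566. Igkc, the immunoglobulin kappa constant gene, was at 34.2 against 37.7 in mouse 1 and 58.7 against 19.0 in mouse 2 (adjusted p = 0.10). Ighm, the heavy chain gene, was at 28.5 against 67.8 and 30.6 against 55.8 (adjusted p = 0.054).

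Of 18 tested immediate early genes, 2 were called and both fell. Egr1, a transcription factor gene induced by neuronal firing, was at 65.6 against 186 in mouse 1 and 107 against 211 in mouse 2 (log2 -1.10, SE 0.15, adjusted p = 0.000429). Egr3 was at 34.2 against 75.5 and 56.2 against 96.4 (log2 -0.84, adjusted p = 0.039). Fos was at 20.0 against 14.8 and 6.38 against 12.0, and Arc at 31.4 against 26.8 and 19.1 against 24.8, in opposite directions in the mice and on 5 to 15 UMIs in the chosen spots. Markers of other tissue moved beside these genes: neuronal Snap25 fell and astrocyte and white matter genes rose in the same spots, and their part in the Egr1 difference was not tested.

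Setting the chosen spots against the other dorsal spots that also had 0 Vxn and 0 Tshz2 removed that requirement as a difference between the sets. This comparison was chosen after the data had been seen. These 324 spots of mouse 1 and 50 of mouse 2 lay at medians of 13.99 and 15.7 pitches, close to the chosen spots. Of 8284 genes tested, 29 (0.35%) were called by edgeR's quasi-likelihood test, 26 higher (0.314%) and 3 lower (0.0362%). Of 11 oligodendrocyte and white matter genes, 10 rose, and no cortical, synaptic or activity list had a called member. Mbp was at 6792 against 4643 CPM in mouse 1 and 4309 against 1688 in mouse 2 (log2 0.95, SE 0.12, adjusted p = 0.00055). Mobp, a further myelin protein gene, was at 1421 against 953 and 843 against 285 (log2 1.03, adjusted p = 0.0051). The astrocyte and activity differences of the wider comparison were no longer called: Gfap was at 188 against 179 and 188 against 141 (adjusted p = 0.87), Aqp4 at 106 against 93.4 and 144 against 138 (adjusted p = 0.96), and Egr1 at 65.6 against 120 and 107 against 116 (adjusted p = 0.83). These reference spots held 1852522 UMIs in mouse 1 and 653257 in mouse 2, against 8816048 and 16871074 in the wider comparison. With so many fewer counts, a lost call does not show that a difference is absent. Of 4 blood genes 2 fell, mostly through mouse 2, with Hba-a1, a haemoglobin gene, at 260 against 273 and 548 against 2610 (log2 -1.39, adjusted p = 0.033).

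The unrestricted set, scored the same way but with Vxn and Tshz2 free to vary, differed from the other dorsal spots in more genes. Of 13042 genes, edgeR called 399 (3.06%), 196 higher (1.5%) and 203 lower (1.56%), and 33 of the 85 genes called for the chosen spots were among them. Nefm was at 212 against 110 in mouse 1 and 230 against 125 in mouse 2 (log2 0.93, adjusted p = 1.93e-07), the opposite direction to the chosen spots. Among neurofilament and axon genes, 7 of 12 rose and 1 fell. Parm1, a gene of extratelencephalic neurons, was at 106 against 49.8 and 103 against 48.5 (log2 1.12), and Ldb2, a cofactor gene of subcerebral projection neurons, at 66.7 against 27.96 and 67.1 against 30.4 (log2 1.21). Pvalb was at 588 against 317 and 657 against 262 (log2 1.18). Gfap fell to 84.0 against 116 and 45.1 against 108 (log2 -0.90), 0 of 11 white matter genes were called, and Egr1 was at 180 against 181 and 191 against 207. In this set 5 of 10 hippocampal genes fell and 1 rose, with Spink8 at 19.8 against 81.0 and 14.3 against 92.8 (log2 -2.44).

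**Figure D4:**
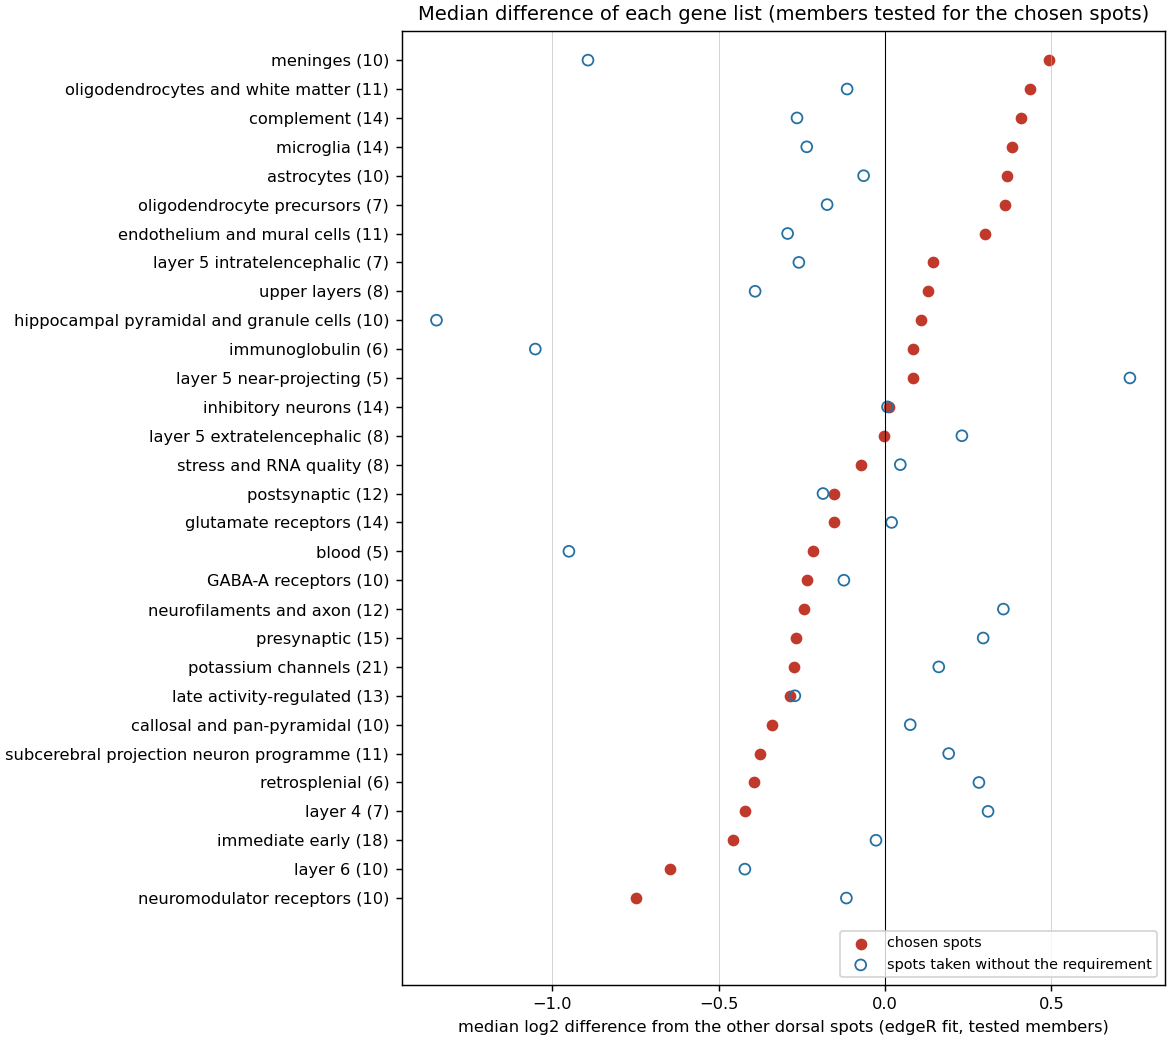
Median log2 difference from the other dorsal spots over the tested members of each gene list (number in brackets), for the chosen spots (red) and for the spots taken without the Vxn and Tshz2 requirement (blue circles). Glial and meningeal lists lay above 0 for the chosen spots and below 0 for the unrestricted set, and neurofilament and presynaptic lists the other way round.

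For a view against other cortical layers, 60 of the remaining dorsal spots per section were taken by the same score on layer 6 genes (Vxn, Foxp2 and Syt6), then on layer 4 genes (Rorb, Rspo1 and Scnn1a), then on upper-layer genes (Cux2, Otof and Lamp5). The genes that chose either set were left out of the tests, and since the layer 6 set was picked on Vxn and the chosen spots were required to lack it, part of that contrast follows from the choice. The layer 6 set lay at medians of 8.04 and 6.13 pitches, the layer 4 set at 4.39 in both mice and the upper set at 2.66 and 3.49. All these medians were shallower than those of the chosen spots, but the sets were not confined to shallow depths. Over 8 pitches lay 31 and 10 of the 60 layer 6 set spots in mouse 1 and mouse 2. For the layer 4 set these were 19 and 18 of 60, and for the upper set 4 of 60 in each mouse. In the neocortex layer 5 lies between layers 4 and 6.

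Against the layer 6 set, 967 of 7901 genes (12.2%) were called, 552 higher (6.99%) and 415 lower (5.25%) in the chosen spots, and DESeq2 called 66 (3.69% of those it gave an adjusted p). All 5 tested layer 6 genes fell. Rprm was at 8.56 against 118 CPM in mouse 1 and 19.1 against 168 in mouse 2 (log2 -3.14, SE 0.31), and Ccn2, a matricellular protein gene of the deepest cortical layer, at 11.4 against 68.7 and 7.66 against 89.6 (log2 -3.07). Pcp4, a calmodulin-binding protein gene strong in deep layers, was at 765 against 2092 and 838 against 1949 (log2 -1.20). Of 15 presynaptic genes 8 fell, with Snap25 at 1261 against 2500 and 1355 against 2811. Egr1 was at 65.6 against 364 and 107 against 387 (log2 -1.94). Ighm was at 28.5 against 177 and 30.6 against 176 (log2 -2.43), and Trbc2, a T cell receptor constant gene, at 28.5 against 126 and 10.2 against 112 (log2 -2.71). Both genes were lower in the chosen spots of each mouse.

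On the higher side of that comparison, all 11 white matter genes rose, with Mag at 454 against 175 and 276 against 204 (log2 0.97), as did 8 of 10 astrocyte genes, with Gfap at 188 against 66.8 and 188 against 44.3 (log2 1.96). Of 9 hippocampal genes 7 rose and 1 fell. Prox1, a transcription factor gene of dentate granule cells, was at 17.1 against 1.91 and 46.0 against 6.18 (log2 3.004), and Spink8 at 51.4 against 26.7 and 58.7 against 19.6 (log2 1.46). Of 8 complement genes 5 rose and 1 fell. C1qa was at 108 against 87.7 and 105 against 50.5 (log2 0.86, adjusted p = 0.0047), a call lost with DESeq2 (adjusted p = 0.50), on thinned spots (0.58), with 30 spots (0.091) and with no requirement on Vxn and Tshz2 (0.52), and C4b, a complement component gene, was at 45.7 against 7.63 and 25.5 against 7.21 (log2 2.24). Igkc was at 34.2 against 9.54 and 58.7 against 7.21 (log2 2.72). Of 5 tested extratelencephalic genes 2 rose, Pou3f1 at 62.8 against 30.5 and 54.9 against 26.8 (log2 1.16) and Crim1, a transmembrane growth factor binding protein gene, at 37.1 against 21.0 and 56.2 against 21.6 (log2 1.31). Neither was called against the other dorsal spots as a whole.

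Against the layer 4 set, 271 of 7003 genes (3.87%) were called, 150 higher (2.14%) and 121 lower (1.73%), while DESeq2 called 3 (0.263%) and edgeR on thinned spots 0 (170 at an unadjusted p under 0.05). All 11 white matter genes rose, with Mag at 454 against 115 in mouse 1 and 276 against 165 in mouse 2 (log2 1.25). Plcxd2, a layer 4 gene, was at 34.2 against 124 and 24.3 against 77.7 (log2 -1.73). Nefm, strong in layer 5, was lower in the chosen spots, at 65.6 against 136 and 84.3 against 147 (log2 -0.87). Parm1 was lower too, at 45.7 against 107 and 23.0 against 70.5 (log2 -1.41). Egr1 was at 65.6 against 210 and 107 against 221 (log2 -1.24).

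Against the upper set, 413 of 7370 genes (5.6%) were called, 274 higher (3.72%) and 139 lower (1.89%), and DESeq2 called 36 (0.829%). All 11 white matter genes and 5 of 7 hippocampal genes rose: Mag was at 454 against 94.6 and 276 against 127 (log2 1.68), and Spink8 at 51.4 against 5.404 and 58.7 against 8.96 (log2 2.92). Gfap was at 188 against 18.9 and 188 against 15.7 (log2 3.58). Of 7 complement genes 4 rose, with C1qa at 108 against 29.7 and 105 against 68.3 (log2 1.08, adjusted p = 0.037), a call lost on thinned spots (adjusted p = 0.13), with 30 spots (0.097), with no requirement on Vxn and Tshz2 (0.83) and with DESeq2 (0.86). Of 10 neurofilament and axon genes 6 fell, with Nefm at 65.6 against 176 and 84.3 against 295 (log2 -1.57), and of 10 callosal and pan-pyramidal genes 4 fell. Meg3, a long noncoding RNA of neurons, was at 516 against 1154 and 435 against 1150 (log2 -1.18). White matter genes were thus higher and Nefm and Egr1 lower in the chosen spots than in each of the layer 4 and upper sets, in both mice. Against the layer 6 set the white matter and Egr1 calls had these directions as well. Several of these calls depended on the setting. Against the upper set the Egr1 call was lost in 4 settings, and over all settings its log2 difference ran from -1.37 to -0.12. Against the layer 4 set the calls of Egr1 and Nefm were lost in 3 settings each, and that of Mag in 2. Nefm changed sign in 1 setting against each of the layer 4 and upper sets.

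The chosen spots were next split within each section. The image left (25 spots in mouse 1, 35 in mouse 2) was compared with the image right (35 and 25), since the injection was made on 1 side. The labels give neither the injected side nor the orientation of the sections. Image left may thus be a different hemisphere in each mouse, and this split cannot measure an effect of the injected side. Of 4449 genes, 13 (0.292%) were called by edgeR, all 13 higher on the left and 12 of them in both mice, with 241 at an unadjusted p under 0.05 in either direction. Igkc was at 70.2 CPM on the left against 9.61 on the right in mouse 1 and 99.9 against 8.50 in mouse 2 (log2 3.33, SE 0.55, adjusted p = 8.03e-07). This rested on 10 and 43 UMIs on the left, and 5 spots held 75% and 78.3% of all Igkc UMIs of the chosen spots. Ttr was at 5001 against 1230 and 25310 against 3394 (log2 2.57), and Kl at 70.2 against 14.4 and 149 against 28.3 (log2 2.42). All 4 tested blood genes were called higher on the left. For Hbb-bt, a haemoglobin gene, this held in mouse 2 alone, with 140.5 against 158.6 in mouse 1 and 239.4 against 59.5 in mouse 2. The rise had the same direction in both mice for Hbb-bs, a further haemoglobin gene, at 2458 against 1163 and 1704 against 623 (log2 1.33), of which 5 spots held 84.5% and 69.4%. Igkc, choroid plexus and blood genes thus moved together, and their part in the Igkc difference was not tested. The Igkc call held with a vertical midline at the middle of the tissue (adjusted p = 4.87e-06) and was lost with DESeq2 (adjusted p = 0.9996), which called 2 genes (0.013%) in all.

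Complement and activity genes did not pass between the sides. C1qa was at 105 against 111 in mouse 1 and 99.9 against 110 in mouse 2 (log2 -0.05, SE 0.31), C1qb at 133 against 96.1 and 107 against 90.7 (log2 0.39, SE 0.31), and C1qc at 133 against 91.3 and 60.4 against 73.7 (log2 0.14, SE 0.33), each with an adjusted p of 0.9998. Egr1 was at 28.1 against 91.3 and 97.6 against 119 (log2 -0.49, SE 0.32, adjusted p = 0.99), on 4 UMIs on the left of mouse 1. Fos, Arc, Npas4 and Ighm were too low to be fitted. White matter genes ran in opposite directions in the mice, with a summed level of 17880 against 15670 in mouse 1 and 7847 against 14190 in mouse 2, and 0 of 11 were called.

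A split at the median distance from the midline, into 30 medial and 30 lateral spots per mouse, gave more differences. Of 4809 genes, 127 (2.64%) were called, 100 higher (2.08%) and 27 lower (0.561%) in the medial spots, and DESeq2 called 25 (2.35%). All 11 white matter genes rose, with Mog, a protein of the outer myelin surface, at 322 against 55.1 in mouse 1 and 202 against 44.5 in mouse 2 (log2 2.38). Ttr was at 4551 against 234 and 29930 against 199 (log2 6.12), and Enpp2, which encodes autotaxin of choroid plexus and oligodendrocytes, at 1072 against 262 and 3639 against 152 (log2 3.58). All 4 tested meninges genes rose, with Ptgds at 2719 against 950 and 2602 against 594 (log2 1.89). C1qb was at 146 against 61.99 and 135 against 62.8 (log2 1.21, SE 0.31, adjusted p = 0.028), and Ctss, a lysosomal protease gene of microglia, at 166 against 82.7 and 194 against 107 (log2 0.97, adjusted p = 0.048). The partner chains C1qa (132 against 75.8 and 110 against 99.5, adjusted p = 0.61) and C1qc (122 against 89.5 and 72.3 against 60.2, adjusted p = 0.70) did not pass. The C1qb call was lost in 3 settings, in which its adjusted p rose as high as 0.98. Among them were the most medial against the most lateral 20 spots (adjusted p = 0.074) and the fit without the mouse as a block (0.082). Over all settings its log2 difference ran from 0.060 to 1.22. The Ctss call was lost in 4 settings, among them no filter on low counts (0.084) and DESeq2 (0.99).

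Of the genes of neurons, a few were called, and those named here were lower in the medial spots. Of 8 tested callosal and pan-pyramidal genes 2 fell, as did 3 of 10 neurofilament and axon genes and 3 of 14 presynaptic genes, and the others of these lists did not pass. Slc17a7, the vesicular glutamate transporter of cortical and hippocampal excitatory neurons, was at 185 in the medial spots against 358 in the lateral spots of mouse 1 and 282 against 505 in mouse 2 (log2 -0.81), and Camk2a, a kinase gene of the same neurons, at 166 against 434 and 254 against 476 (log2 -1.01). Gap43 was at 97.5 against 227 and 64.8 against 209 (log2 -1.43). Egr1 was at 48.7 against 89.5 and 110 against 105, and Igkc at 43.8 against 20.7 and 79.7 against 36.7 (adjusted p = 0.20). Slc17a7, Camk2a and Gap43 were lower in the medial spots of each mouse, but the calls depended on the setting. That of Slc17a7 was lost on thinned spots (adjusted p = 0.13), with no requirement on Vxn and Tshz2 (0.097), with DESeq2 (0.48) and without the mouse as a block (0.21). That of Camk2a was lost in the same settings (0.13, 0.51, 0.18 and 0.083), and that of Gap43 on thinned spots (0.94) and with DESeq2 (0.30). Egr1 and Igkc were not called.

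**Figure D5:**
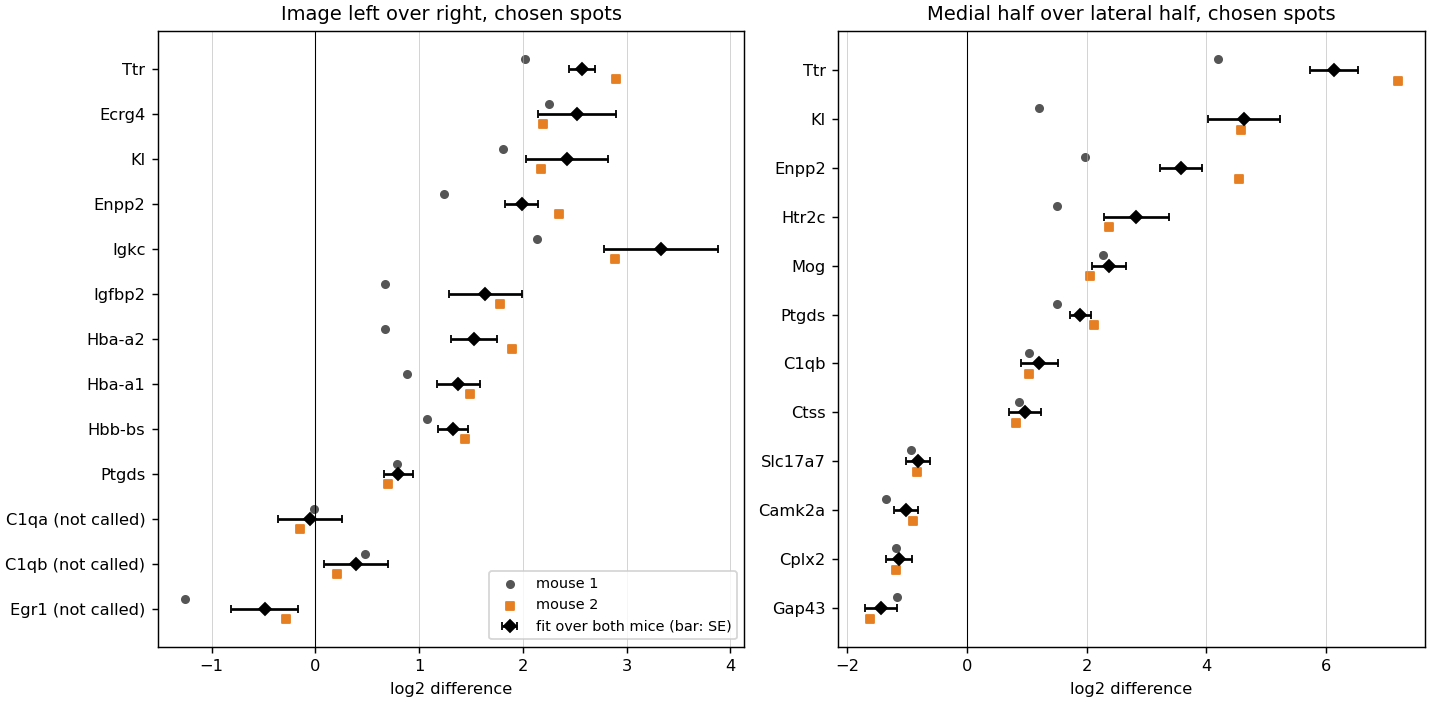
Log2 differences between the image left and right of the chosen spots (left panel) and between their medial and lateral spots (right panel), for mouse 1 (circles), mouse 2 (squares) and the edgeR fit over both (diamonds, bars are SE). Values of single mice were computed with a prior count of 2, which pulls genes with few UMIs, such as Igkc, toward 0. Ttr was higher on the left and in the medial spots in both mice.

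The mice were compared with 1 section each, so there is no test, and the intervals cover counting error only. Of 156 listed genes with at least 50 UMIs in the chosen spots of both mice together, 62 had a 95% interval of the ratio that excluded 1, with 34 higher and 28 lower in mouse 2. All 11 white matter genes were lower in mouse 2. Mbp was at 6792 in mouse 1 and 4309 in mouse 2, a ratio of 0.634 (0.602 to 0.669), whereas in the other dorsal spots the ratio was 0.988. Pvalb had a ratio of 0.412 (0.313 to 0.542), against 0.879 in the other dorsal spots. Cplx2, a regulator of vesicle fusion, was higher in mouse 2 with a ratio of 1.99 (1.501 to 2.67), as was Nptx1, a secreted synaptic pentraxin, with 2.81 (1.77 to 4.69). Csf1r, the microglial growth factor receptor, had a ratio of 0.380 (0.221 to 0.648) and C1qc 0.612 (0.395 to 0.956). Egr1 had a ratio of 1.63 (1.02 to 2.72). The chosen spots of the mice lay at different depths, with 20 spots of mouse 1 and 2 of mouse 2 within 8 pitches of the edge. The mice also differed in strain or line and in UMIs per spot. Animal, strain or line, section, UMIs per spot and position cannot be told apart.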

How the data were processed

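Counts of UMIs per gene and spot were deposited by the authors for 2 sections, as output of Space Ranger (version 1.3.1, per the file headers) and with genome build mm10 per the submitters' processing notes. The gene annotation used is not given in the sources used here. Of 32285 genes, those that share a symbol (78) were kept by their identifiers. The counts were summed over the spots of a set in each section, giving 4 libraries per comparison (2 sets, 2 mice), with depths as given above. Tests used edgeR 4.0.16 in R 4.3.3 (TMM, filterByExpr, glmQLFit, glmQLFTest, Benjamini-Hochberg over all genes fitted). The mouse was a block because both sets of a pair come from 1 section, and its 4 libraries left 1 residual degree of freedom. The fits pool the spread over genes, with prior degrees of freedom of 28.5 against the other dorsal spots, 13.2 against the upper set, 21.6 between medial and lateral spots and no bound otherwise, so a gene's own spread between the 2 mice had little or no weight. Genes used to choose a set were not tested. DESeq2 1.42.0, no filter, no block, thinning, other set sizes, scores and splits were alternatives. Python 3.11.15 with numpy 2.4.6, scipy 1.17.1 and pandas 2.3.3 did the rest. On simulated data for the first comparison (13040 genes), 31% of 100 genes changed 2-fold and 66% of 100 changed 4-fold were recovered. The simulation gave every gene the common dispersion of that fit (0.006) and the same proportions in both mice. It thus left out spread particular to a gene, and recovery in real data may be lower.

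The midline was the line that best mirrored the section on 10 principal components of 2000 variable genes. Its mirror correlation was 0.769 in mouse 1 and 0.848 in mouse 2. Gene positions came from RefSeq for GRCm38.p6, in which 503 of 509 symbols looked up were matched, and were used only to locate genes. Named were, per list, up to 3 genes of largest change that were called in the same direction in both mice, or otherwise up to 2 abundant members, the 10 largest further rises and falls with at least 20 CPM, and C1qa, C1qb, C1qc, Fos, Arc, Npas4, Egr1, Igkc and Ighm. Beyond that rule, Pvalb, Mag (against the layer sets), Ecrg4, Mobp, Spink8 and the genes plotted by depth were named after their values were seen. The members, the 31 gene lists (349 of 352 genes in the tables) and the tests were chosen with earlier results of these data known. The distance from the dorsal edge alone, the band from 2 to 6 pitches and the comparison with the other dorsal spots free of Vxn and Tshz2 were added after seeing the data. Some genes that the rule named are not reported here.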

Additional observations from a re-analysis of the deposited data

How the results depend on the processing

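Only mice are replicates here, and leaving out either leaves no test. Signal was limited by depth in the chosen spots of mouse 1, where many named genes rest on under 50 UMIs. Of the 85 genes called against the other dorsal spots, thinning each spot to 2000 UMIs left 0, DESeq2 0 and the fit with no replicate block 0; with 30 spots per section 34 were called (19 of them among the 85), with 100 spots 151 (65), with no requirement on Vxn and Tshz2 399 (33), with the score without Fezf2 275 (81) or without Deptor 202 (80), with adjacent spots only 11 (4), against other dorsal spots with 0 Vxn and 0 Tshz2 29 (8), and with no filter 184 (84). The score without Etv1 gave 106 (50), a count within 1.5 times of the 85. In mouse 2 that set included spots without Fezf2 and Deptor, since too few UMIs of these genes were present. It was thus not picked by score alone. Of the 110 spots of mouse 2 free of Vxn and Tshz2, only 70 scored above 0. The set of 100 spots thus took in spots of mouse 2 with none of the scored genes. Its 65 shared calls do not test a larger set picked by these genes alone. The 967 genes against the layer 6 set became 116 on thinned spots, 219 with 30 spots, 517 with no requirement, 66 with DESeq2 and 540 with no replicate block. The 271 against the layer 4 set became 0, 125, 141, 3 and 78 in the same order. The 413 against the upper set became 112, 161, 53 and 36, with 331 under no replicate block. The 13 between the sides became 5 on thinned spots, 3 with no requirement, 5 with a vertical midline, 2 with DESeq2 and 6 with no replicate block, and the 127 between medial and lateral spots 26 on thinned spots, 25 with DESeq2 and 57 with no replicate block. With no requirement 125 were called between medial and lateral spots, 34 of them among the 127. Leaving out the requirement, thinning and fewer spots change which molecules enter; otherwise the cause was not tested. Distance from the dorsal edge alone moved the median depth from 10.6 to 12.5 pitches in mouse 1 and from 11.3 to 14.7 in mouse 2.

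With no requirement on Vxn and Tshz2, these log2 differences from the other dorsal spots changed sign: Aqp4 -0.072, Gfap -0.90, Slc1a3 -0.23, Cnp -0.053, Cldn11 -0.18, Mag -0.024, Ptgds -0.43, Clu -0.36, Hsd11b1 -0.82, Pdpn -0.62, Acadl -0.95, Kl -1.80, Trpm3 -0.98 and Ecrg4 -3.23 turned negative, and Nrgn 0.014, Nefm 0.93, Gap43 0.62, Snap25 0.36, Meg3 0.28, Hs3st2 0.26 and Myl4 0.54 turned positive. Against the layer 6 set Ldb2 (0.68) and Spink8 (-0.36) turned, against the layer 4 set Nefm (0.64), Parm1 (0.28) and Gfap (-0.97), against the upper set Ldb2 (0.24), Parm1 (0.30), Nefm (0.010) and Pvalb (0.19), and between the sides Hbb-bs (-0.44). With adjacent spots only Ptgds turned (-0.19). Against other dorsal spots with 0 Vxn and 0 Tshz2, Slc1a3 (-0.016), Gap43 (0.048) and Myl4 (0.072) turned.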
